A study of Homo sapiens with 10 samples.

Results

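InsF, InsG and InsH are 3 derivatives of GIST-T1, an established human cell line from a metastatic gastrointestinal stromal tumour (GIST), in which a CTCF insulator was disrupted. The comparison described here sets InsF against the mean of InsG and InsH and uses the 6 libraries with these line names in their titles, of 10 in the series. Each line has 2 libraries of poly(A)-selected RNA, numbered replicate 1 and replicate 2. The other 4 libraries belong to unedited GIST-T1 control cells and to a further insulator line, InsE, with 2 each. All lines share the GIST-T1 background and grew in the same serum-containing medium, and no group received a drug or ligand. The sources used here do not give the sequence that each line lacks, whether a line is a single clone, or whether replicates were separate cultures. The spread behind the p-values below is that between libraries and may be technical.

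CTCF binds insulator sites in DNA and, together with cohesin, forms loop boundaries that keep the enhancers of one domain from acting on genes of the next. In GIST, a boundary on chromosome 11 separates the growth factor genes FGF3, FGF4 and FGF19 from ANO1, a chloride channel gene that is strongly transcribed in these tumours. FGF3 is a secreted ligand of FGF receptors, which signal through the ERK and PI3K pathways, as KIT, the receptor that drives most GISTs, also does. The question asked of the 3 lines was which other transcripts go with the higher FGF3 level of InsF.

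The 6 libraries held between 11.1 M and 42.5 M expected counts (M, mega, as in Mb), and replicate 1 was the deeper library in each line. Mitochondrially encoded transcripts took 3.48% to 3.62% of the counts. The cells expressed the GIST genes KIT, ANO1, ETV1 and CD34 in every library. Of 7 leukocyte, 6 endothelial, 7 epithelial and 8 neuron and glia markers, only 2, 2, 2 and 1 reached a level that could be tested. In CPM (counts scaled to a common library size), the summed leukocyte markers were at 3.21 and 3.77 CPM in InsF and 2.73 to 3.01 CPM in InsG and InsH. They were highest in InsF, though neither tested marker passed the test, and their part in the results was not tested. The summed endothelial markers were at 1.17 and 1.61 CPM in InsF and 0.958 to 1.52 CPM in the other lines. Of 15 smooth muscle contractile genes, 10 could be tested, ACTA2 and TAGLN among them, while DES and MYL9 were at 0 in all 6 libraries. Of 7 fibroblast markers, 5 could be tested. Their summed level was 1350 CPM in both InsF libraries, 1330 and 1350 CPM in InsG and 1300 and 1310 CPM in InsH. Levels are given below as CPM after TMM scaling, and fold changes on the log2 scale.

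FGF3 (ENSG00000186895.3, chr11:69809969-69819024 on hg38, minus strand) stood at 12.5 and 14.3 CPM in the 2 InsF libraries, 5.21 and 5.46 CPM in InsG, and 7.29 and 10.4 CPM in InsH. Both InsF libraries lay above all 4 others, and the InsH libraries lay above both InsG libraries. The mean level of InsF was 2.51-fold that of InsG and 1.51-fold that of InsH, and the contrast was 0.96 ± 0.09 (SE) on the log2 scale. The comparison was proposed with these levels known, so they are a description and carry no test. InsE, at 36.5 and 36.1 CPM, had 2.71-fold the level of InsF, and FGF3 was at 0 in both control libraries. The other FGF genes of the locus stayed near the detection limit: FGF19 was at 0.166 to 0.475 CPM and FGF4 at 0 to 0.257 CPM in the 6 libraries, too low to test.

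**Figure D1:**
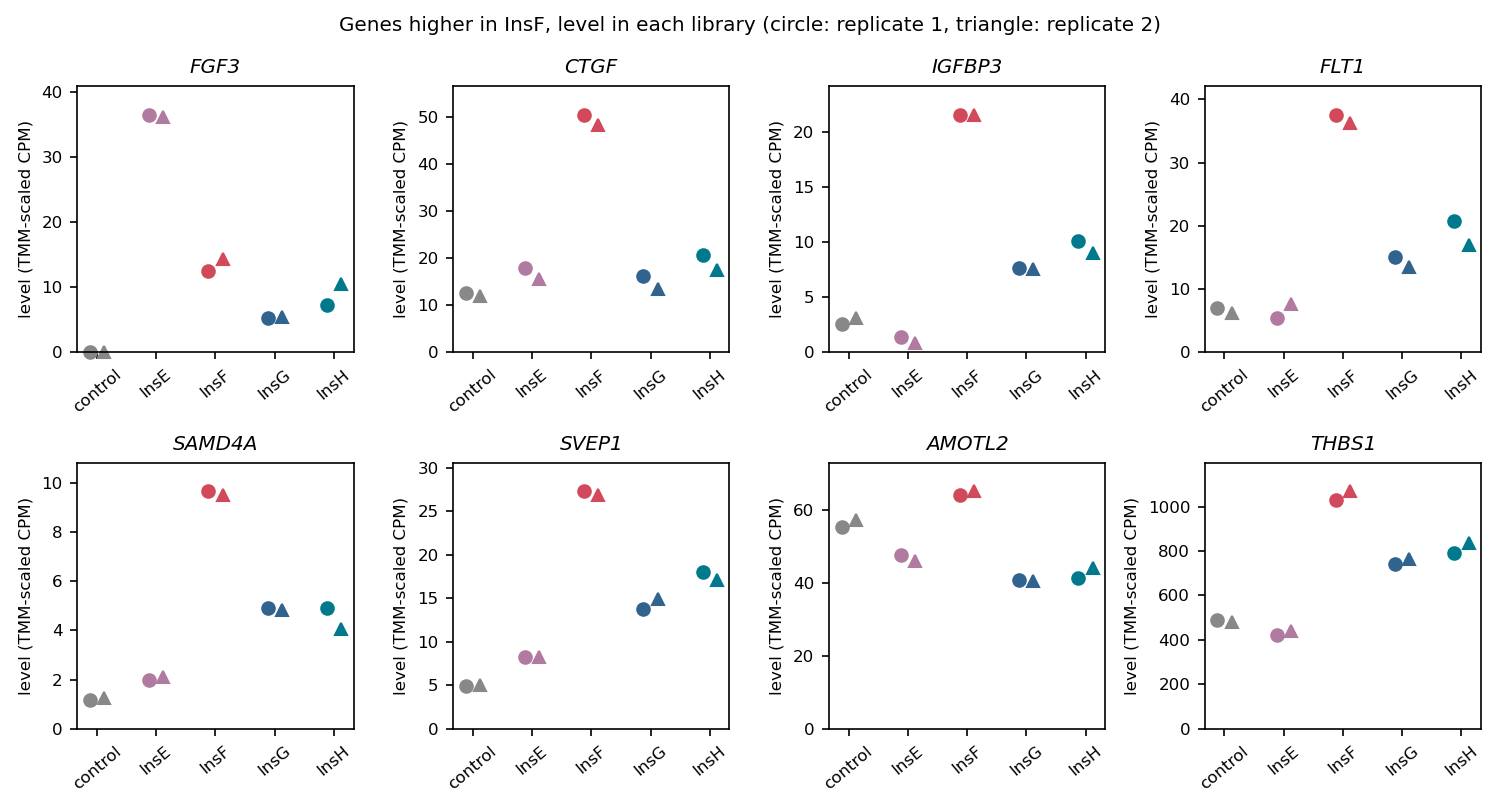
Level in TMM-scaled CPM (y axis, from 0) of FGF3 and 7 genes that rose in InsF, for each of the 10 libraries by line (x axis), circles for replicate 1 and triangles for replicate 2. Both InsF points lie above all InsG and InsH points in each panel, and for FGF3 the InsE points are highest.

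Of the named genes of the locus, CCND1 and ANO1 fell slightly, CTTN rose slightly, and 7 others did not pass the test. CCND1, the cyclin D1 gene on the side of FGF19, was at 204 CPM in both InsF libraries, 230 and 237 CPM in InsG and 224 and 226 CPM in InsH. InsF was the lowest line in both replicates, a fall of 0.17 ± 0.02 on the log2 scale (edgeR quasi-likelihood test with Benjamini-Hochberg adjustment, adjusted p = 3.25e-07). In the comparison of InsE with control, 2 lines that are not in this one, CCND1 was higher by 0.48 (adjusted p = 7.94e-08). The spread in that comparison came from a fit to all 10 libraries. ANO1, on the other side of the boundary, was at 697 and 761 CPM in InsF, 746 and 804 CPM in InsG and 760 and 811 CPM in InsH. InsF was lowest within each replicate number, but the groups overlapped across numbers, and the change was -0.10 ± 0.01 (adjusted p = 6.52e-11). Without InsF replicate 1 the adjusted p of ANO1 was 0.0632. The largest called change within 2 Mb was that of RP11-805J14.2 (ENSG00000254902.1), an antisense transcript annotated inside ANO1 at chr11:70187788-70188509, minus strand, singled out after its values were seen. It was at 3.49 and 4.98 CPM in InsF, 7.5 and 7.79 CPM in InsG and 6.77 and 8.95 CPM in InsH. Both InsF libraries lay below all InsG and InsH libraries, a fall of 0.93 ± 0.13 (adjusted p = 2.15e-06, and 0.414 without the block). The transcript was also low in InsE, at 3.81 and 1.59 CPM against 7.91 and 8.11 CPM in control. In InsE minus control it changed by -1.33 (adjusted p = 0.00499), so the lower level was not particular to InsF. The strand setting of the counting is not known, so its reads and those of ANO1 cannot be told apart. CTTN, which encodes the actin regulator cortactin, was higher by 0.09 ± 0.02 (adjusted p = 0.00108). That call was lost after correction for GC content and transcript length (adjusted p = 0.23) and without InsF replicate 1 (adjusted p = 0.116). The 7 that did not pass were MYEOV, TPCN2, MRGPRF, ORAOV1, FADD, PPFIA1 and SHANK2. Of 34 other tested genes within 2 Mb of FGF3, 4 passed the test as higher and 4 as lower, or 23.5% against 19.3% of all tested genes. Besides CTTN, the higher ones were C11orf24, LRP5 and CPT1A, which encodes the carnitine palmitoyltransferase of mitochondrial fatty acid import and rose by 0.23 (adjusted p = 1.34e-07). Within 5 Mb, 39 of 175 were higher and 5 lower (25.1%), with a median change of 0.057. The part of GC content in that split was not tested.

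Across the transcriptome, 2859 of 14849 tested genes passed an adjusted p of 0.05 in InsF minus the mean of InsG and InsH (19.3%). Of these, 1417 were higher in InsF (9.54%) and 1442 lower (9.71%). Most of the differences were small: the median absolute log2 change of the called genes was 0.13, and 91 higher and 37 lower genes changed by 0.5 or more. InsG and InsH, the 2 reference lines, differed from each other to a similar extent, with 2517 calls (17%), 1389 higher in InsG (9.35%) and 1128 lower (7.6%), and with 30 higher and 50 lower changes of at least 0.5. InsF minus InsG gave 4480 calls (30.2%) and InsF minus InsH 686 (4.62%), and these comparisons share the InsF libraries. The median absolute change of tested genes was 0.117 in InsF minus InsG, 0.096 in InsG minus InsH and 0.07 in InsF minus InsH. InsG was thus the line furthest from the others, and InsF was closer to InsH than InsG was. How many of the 2859 calls come from InsG rather than InsF was not tested. In 1240 of the genes called higher (8.35% of those tested) and 1200 called lower (8.08%), InsF lay beyond both other lines in each replicate number. Over all 14849 tested genes, called or not, InsF lay above both lines in 2803 and below both in 2692. The called genes were selected on the same difference, so this position is no separate support.

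The counts of calls rest on the replicate number as a block. With it, the variation left between libraries was close to counting noise, a common biological coefficient of variation of 0.01. Without the block, 11 genes passed in InsF minus the mean of InsG and InsH, 10 higher and 1 lower, and none in InsG minus InsH, where 345 genes had an unadjusted p under 0.05 in edgeR. The 10 higher genes were CTGF, IGFBP3, FLT1, SAMD4A, SVEP1, AMOTL2, THBS1 and 3 near-identical clone-named copies, CH507-513H4.3, CH507-513H4.4 and CH507-513H4.6, to which reads cannot be assigned separately. The 1 lower gene was SCD. Without InsF replicate 1, 706 genes passed in the blocked fit.

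**Figure D2:**
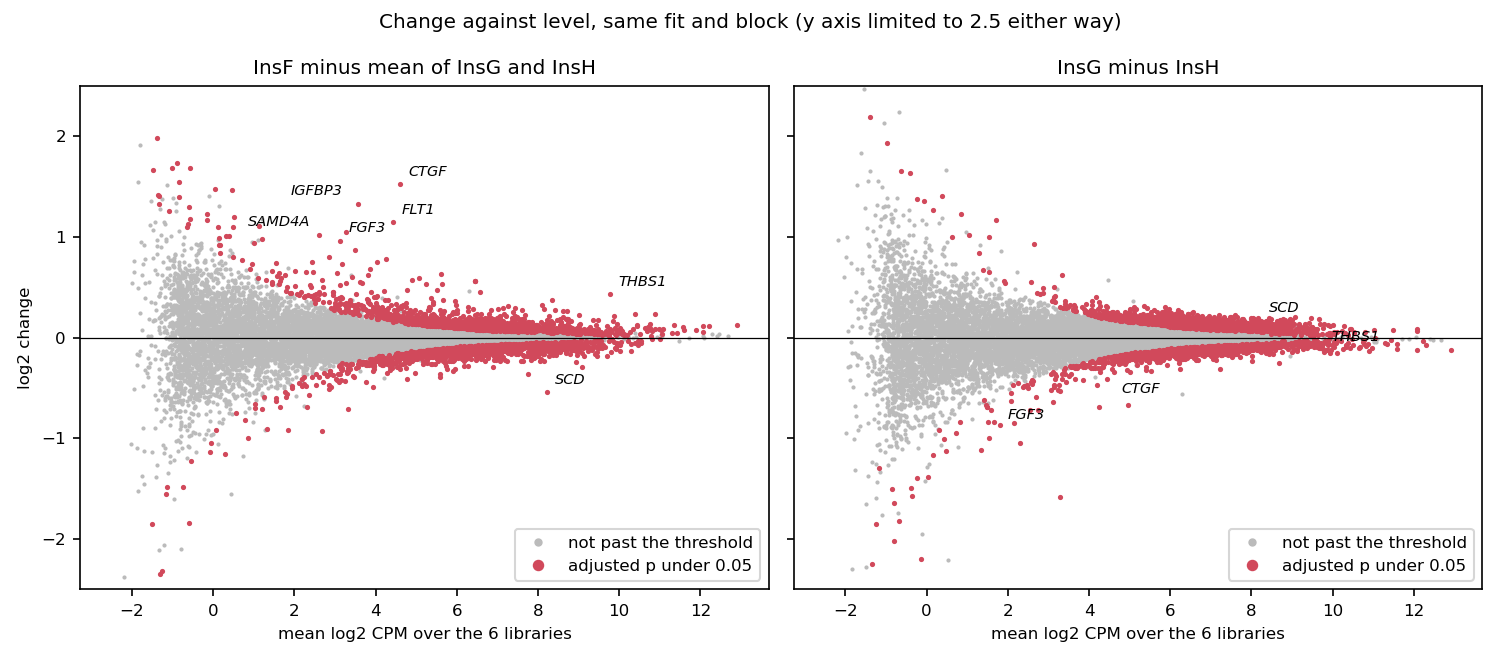
Log2 change (y axis, limited to 2.5 either way) against mean log2 CPM over the 6 libraries (x axis) for 14849 tested genes, InsF minus the mean of InsG and InsH on the left and InsG minus InsH on the right, red points with an adjusted p under 0.05. The 2 panels hold 2859 and 2517 red points, most of them close to 0, and CTGF, IGFBP3, FLT1 and SCD stand away from the band on the left.

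The small changes moved with the base composition of the transcripts. The median change of InsF minus the mean of InsG and InsH was -0.079 in the 2967 genes with the lowest GC content, of 5 equal bins, and 0.066 in the bin with the highest. Called genes followed the same line, with 46 higher and 804 lower in the lowest bin and 509 higher and 61 lower in the highest. InsG minus InsH ran the other way, from 0.109 to -0.102. The correlation (r) of the change with GC content was 0.17 in InsF minus the mean of InsG and InsH. It was 0.27 in InsF minus InsG, -0.23 in InsG minus InsH and 0.03 in InsF minus InsH. The trend thus set InsG apart from InsF and InsH, and InsF hardly differed from InsH in it. How many of the calls that followed GC content come from InsG was not tested. With GC content and length corrected in the blocked fit, 1335 genes passed in InsF minus the mean, 1052 of them among the 2859, and InsG minus InsH kept 341 calls. Of the genes with changes of 0.5 or more, 67 of 91 higher and 21 of 37 lower ones were still called. Where this correction ended the call of a gene described below, its value is given; the part of GC content in the other results was not tested.

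**Figure D3:**
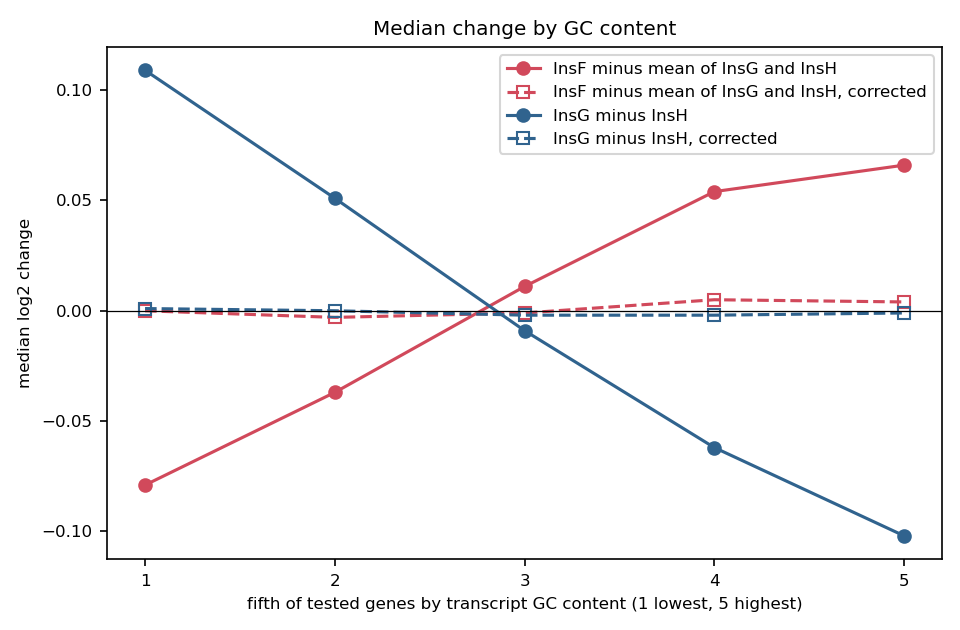
Median log2 change (y axis) of the tested genes in 5 bins by transcript GC content (x axis, 1 lowest, 5 highest), for InsF minus the mean of InsG and InsH in red and InsG minus InsH in blue, before (filled circles) and after (open squares) correction for GC content and length. The red line goes from -0.079 to 0.066 and the blue from 0.109 to -0.102, and the corrected lines lie within 0.005 of 0.

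CTGF showed the largest rise among the genes named by the rule on size and level. It encodes connective tissue growth factor (CCN2), a secreted matricellular protein and a standard target of the transcriptional coactivators YAP and TAZ, which act through TEAD factors bound upstream of it. The gene (ENSG00000118523.5) lies at chr6:131948176-131951373 on hg38, minus strand. The stretch from 250 to 51 bases before its RefSeq start is shown here because it carries 3 matches to GGAATG, the core motif of TEAD factors, set in capitals (GRCh38.p14, chr6:131951423-131951622, minus strand, 5′ to 3′).

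CTGF: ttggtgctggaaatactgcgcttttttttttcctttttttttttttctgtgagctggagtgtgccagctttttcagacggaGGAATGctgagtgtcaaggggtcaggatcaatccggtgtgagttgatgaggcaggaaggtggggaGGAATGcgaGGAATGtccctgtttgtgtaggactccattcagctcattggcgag

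GGAATG, searched on both strands over the 250 bases before each start, occurred in 11.89% of 35116 RefSeq promoters. It was present in 3 of the 5 windows the table holds for the called YAP targets CTGF, AMOTL2 and AJUBA. A match is a description of the letters and not evidence of binding. CTGF was at 50.6 and 48.4 CPM in InsF, 16.2 and 13.4 CPM in InsG and 20.6 and 17.6 CPM in InsH. Both InsF libraries lay more than 2-fold above every InsG and InsH library, while InsE (17.9 and 15.6 CPM) and control (12.7 and 12 CPM) stayed near the level of the other lines. CTGF rose by 1.52 ± 0.05 on the log2 scale (adjusted p = 1.54e-20), and by 1.54 ± 0.09 without the block (adjusted p = 0.00306).

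Other YAP targets rose with CTGF, by less. Of 8 tested members of the list, 5 rose and none fell, with a median change of 0.28 against 0 over all tested genes. Of all tested genes, 9.54% were called higher and 9.71% lower, the shares to set beside the counts of this and the other lists. After the GC correction 5 of the 8 members rose and none fell, without TEAD4 and with another member in its place. CYR61, the matricellular relative of CTGF also called CCN1, was at 11.1 CPM in both InsF libraries, 6.7 and 6.44 CPM in InsG and 7.81 and 7.21 CPM in InsH. It rose by 0.65 ± 0.09 (adjusted p = 3.82e-06). AMOTL2, an angiomotin family scaffold that restrains YAP, was at 64.1 and 65.1 CPM in InsF, 40.6 and 40.5 CPM in InsG and 41.3 and 44.1 CPM in InsH, a rise of 0.64 ± 0.04 (adjusted p = 3.81e-14). For both genes InsF lay above all 4 reference libraries. Control cells had CYR61 at 10.7 and 11.1 CPM and AMOTL2 at 55.2 and 57.2 CPM, so for these 2 genes InsF stood near or slightly above control and InsG and InsH below it. The LIM protein AJUBA rose by 0.33 ± 0.07 (adjusted p = 0.00179), a call lost without InsF replicate 2 (adjusted p = 0.0682). TEAD4, a TEAD factor, rose by 0.23 (adjusted p = 0.012), lost after the GC correction (adjusted p = 0.133) and without InsF replicate 1 (adjusted p = 0.165). TEAD1 and the kinase gene LATS2 did not pass the test, at 0.05 and 0.06. Without InsF replicate 2, 3 of the list were called.

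IGFBP3, FLT1, SAMD4A and SVEP1 rose in InsF under the fits with and without the block. IGFBP3, a secreted carrier of insulin-like growth factors, was at 21.6 CPM in both InsF libraries, 7.62 and 7.52 CPM in InsG and 10.1 and 9.03 CPM in InsH. InsF lay above all other libraries, with a change of 1.33 ± 0.07 (adjusted p = 4.99e-15). The rule that named the 15 largest rises required InsF beyond both lines in each replicate number, so for these genes such separation is no further support. FLT1, the VEGF receptor 1 gene, was at 37.6 and 36.3 CPM in InsF, 15 and 13.5 CPM in InsG and 20.7 and 16.9 CPM in InsH. It rose by 1.15 ± 0.05 (adjusted p = 1.93e-16), while the endothelial markers CDH5 and VWF remained under 1 CPM in every library. SAMD4A, an RNA-binding repressor of translation, was at 9.67 and 9.49 CPM in InsF against 4.91 and 4.83 CPM in InsG and 4.92 and 4.06 CPM in InsH. Its rise was 1.02 ± 0.11 (adjusted p = 2.05e-08), with InsG and InsH at about the same level. SVEP1, a large secreted adhesion protein, was at 27.3 and 26.9 CPM in InsF, 13.8 and 14.9 CPM in InsG and 18 and 17.1 CPM in InsH. It rose by 0.78 ± 0.06 (adjusted p = 1.02e-11). In all 4 genes the control libraries lay below InsF, InsG and InsH, at 6.26 and 7.04 CPM for FLT1 and 4.86 and 4.98 CPM for SVEP1.

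Among the remaining genes of the 15 largest rises, NRG1, a ligand of the ERBB receptors, was at 16.2 and 16.5 CPM in InsF, 7.5 and 9.58 CPM in InsG and 10.1 and 9.44 CPM in InsH. NRG1 rose by 0.87 ± 0.08 (adjusted p = 2.01e-09), and the actin-associated podocyte protein SYNPO rose by 0.73 ± 0.09 (adjusted p = 2.24e-07). TMEM130 rose by 0.80 ± 0.11 (adjusted p = 4.81e-06). None of these 3 passed without the block, where the adjusted p was 0.0746 for NRG1, 0.0863 for SYNPO and 0.207 for TMEM130. CRIM1, WTIP and TMEM178A, at changes of 0.98, 0.75 and 0.74, were no longer called without InsF replicate 1, with adjusted p values of 0.238, 0.0824 and 0.477. BIVM-ERCC5 is a readthrough of neighbouring genes whose reads cannot be told apart from theirs. It was at 14.2 and 15.9 CPM in InsF, 10.4 and 15.8 CPM in InsH and 3.36 and 6 CPM in InsG, a change of 1.05 on the log2 scale. InsF differed little from InsH (0.26, adjusted p = 0.237), and InsG was the line that stood apart.

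Many matricellular and proteoglycan genes of the extracellular matrix rose, and fewer collagens and proteases. Of 19 tested matrix proteoglycan and matricellular genes, 12 rose and none fell, with a median change of 0.19, and 11 rose after the GC correction. CTGF and CYR61 are on this list and on that of YAP targets, so the 2 counts overlap. In InsG minus InsH, 1 of the list was higher and 6 lower. THBS1, which encodes the adhesive glycoprotein thrombospondin 1, was at 1030 and 1070 CPM in InsF, 740 and 765 CPM in InsG and 793 and 838 CPM in InsH. All InsF values lay above all others, with a rise of 0.43 ± 0.01 (adjusted p = 2.07e-29); the gene was singled out after its values were seen, because it passed without the block (adjusted p = 0.0492). TNC, the matrix protein tenascin C, was at 13.3 and 14.3 CPM in InsF, 8.04 and 9.13 CPM in InsG and 9.32 and 10.1 CPM in InsH, a rise of 0.60 ± 0.08 (adjusted p = 1.73e-06). WISP1, another CCN family gene, was at 56.1 and 55.7 CPM in InsF, 39.4 and 38.3 CPM in InsG and 42.2 and 41.3 CPM in InsH. WISP1 rose by 0.47 ± 0.04 (adjusted p = 9.51e-11). POSTN (periostin) rose by 0.45, DCN (decorin) by 0.20 and FN1 (fibronectin) by 0.19. Of 20 collagen chain genes, 9 rose and none fell, with a median of 0.07. That median was 0.12 against InsG alone and 0.03 against InsH alone, and 6 chains were lower in InsG than in InsH. COL12A1 rose by 0.24 ± 0.02 (adjusted p = 3.65e-09), and 5 chains rose after the GC correction. COL1A1 rose by 0.30 and was not called without InsF replicate 1 (adjusted p = 0.131), where 3 chains passed. Of 15 matrix proteases and inhibitors, 4 rose and none fell, with a median of 0.03. ADAMTS1, a secreted metalloprotease, rose by 0.17. Without InsF replicate 1, 1 protease or inhibitor passed.

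**Figure D4:**
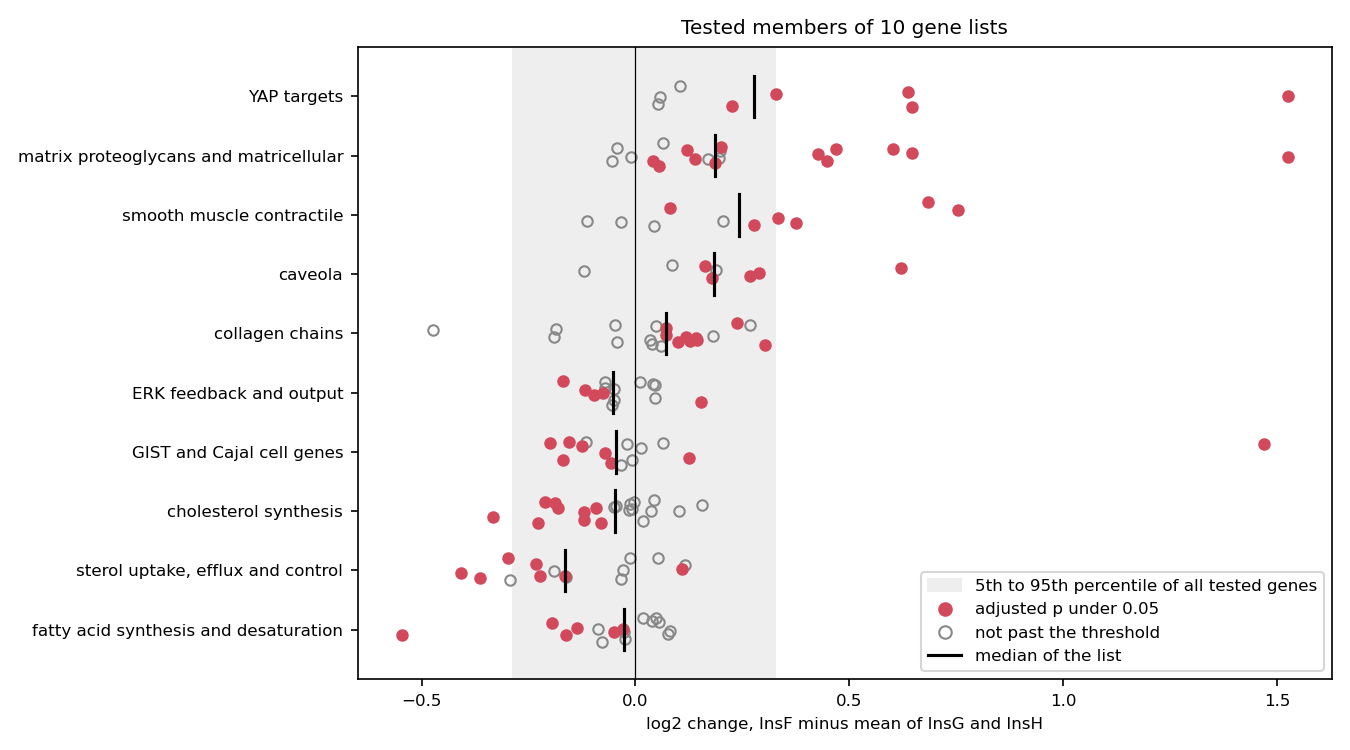
Log2 change in InsF minus the mean of InsG and InsH (x axis) of the tested members of 10 gene lists (y axis), filled red where the adjusted p was under 0.05, with a black bar at each list's median and the 5th to 95th percentile of all tested genes in grey. YAP targets and contractile genes have medians of 0.28 and 0.24, and the sterol uptake, efflux and control list has a median of -0.16.

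The contractile genes of smooth muscle, many of them targets of serum response factor, included several that rose. Of 10 tested members, 6 rose and none fell, with a median change of 0.24, and 4 rose after the GC correction. Without InsF replicate 2, 4 rose and 1 fell. In InsG minus InsH, 1 of the list was higher and 4 lower. ACTG2, which encodes the gamma actin of visceral smooth muscle, was at 20 and 19.5 CPM in InsF, 11.5 and 10.4 CPM in InsG and 12.9 and 14.9 CPM in InsH. Its change was 0.68 ± 0.07 (adjusted p = 1.28e-08), with InsF above all others. The stretch from 250 to 51 bases before its RefSeq start is shown because it carries 2 CArG boxes, the sequence bound by serum response factor, in capitals (GRCh38.p14, chr2:73892758-73892957, plus strand, 5′ to 3′).

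ACTG2: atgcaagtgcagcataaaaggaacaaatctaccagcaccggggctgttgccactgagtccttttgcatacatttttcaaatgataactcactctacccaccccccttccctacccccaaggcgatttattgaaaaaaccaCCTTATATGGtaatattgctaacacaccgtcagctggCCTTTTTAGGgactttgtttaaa

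The exact CArG pattern CCWWWWWWGG (W for A or T), on either strand, occurred in 1.16% of the 35116 promoters and in 2 of 10 windows of the called contractile genes. Variants with a mismatch were not counted, so a window without a match may still hold a CArG-like element. TAGLN, the actin-binding protein transgelin, was at 22.2 and 24.6 CPM in InsF, 12.5 and 11 CPM in InsG and 14.5 and 16.6 CPM in InsH, against 4.96 and 4.52 CPM in control. It rose by 0.75 ± 0.07 (adjusted p = 6.93e-10). ACTA2, the alpha smooth muscle actin, was at 370 and 399 CPM in InsF, 266 and 300 CPM in InsG and 300 and 325 CPM in InsH. Both InsF libraries were above all others, a rise of 0.38 ± 0.02 (adjusted p = 2.73e-17). TPM1 (tropomyosin) rose by 0.28 ± 0.02 (adjusted p = 6.85e-10), and TPM2 by 0.33 ± 0.09 (adjusted p = 0.00857). TPM2 was lost without InsF replicate 2 (adjusted p = 0.307) and after the GC correction (adjusted p = 0.0504). MYLK, the myosin light chain kinase, was at 0.04 and did not pass. The mature smooth muscle genes DES and MYL9 were at 0 in these libraries, CNN1 at 0 to 0.0673 CPM and MYH11 at 0.259 to 0.537 CPM.

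Genes of caveolae, membrane pits common in smooth muscle and endothelium, followed the same direction. Of 8 tested members, 5 rose and none fell, with a median change of 0.18, and 4 rose after the GC correction. CAV1, the main coat protein, was at 20.4 and 16.3 CPM in InsF, 12.6 and 13 CPM in InsG and 13.4 and 10.1 CPM in InsH, and at 1.58 and 1.03 CPM in control. It rose by 0.62 ± 0.08 (adjusted p = 4.33e-07). The coat genes SDPR and PTRF rose by 0.29 and 0.18 and the caveolar neck ATPase EHD2 by 0.27. SDPR was lost without InsF replicate 2 (adjusted p = 0.0732), where 3 of the list were called. CAV2, at 0.19, did not pass.

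**Figure D5:**
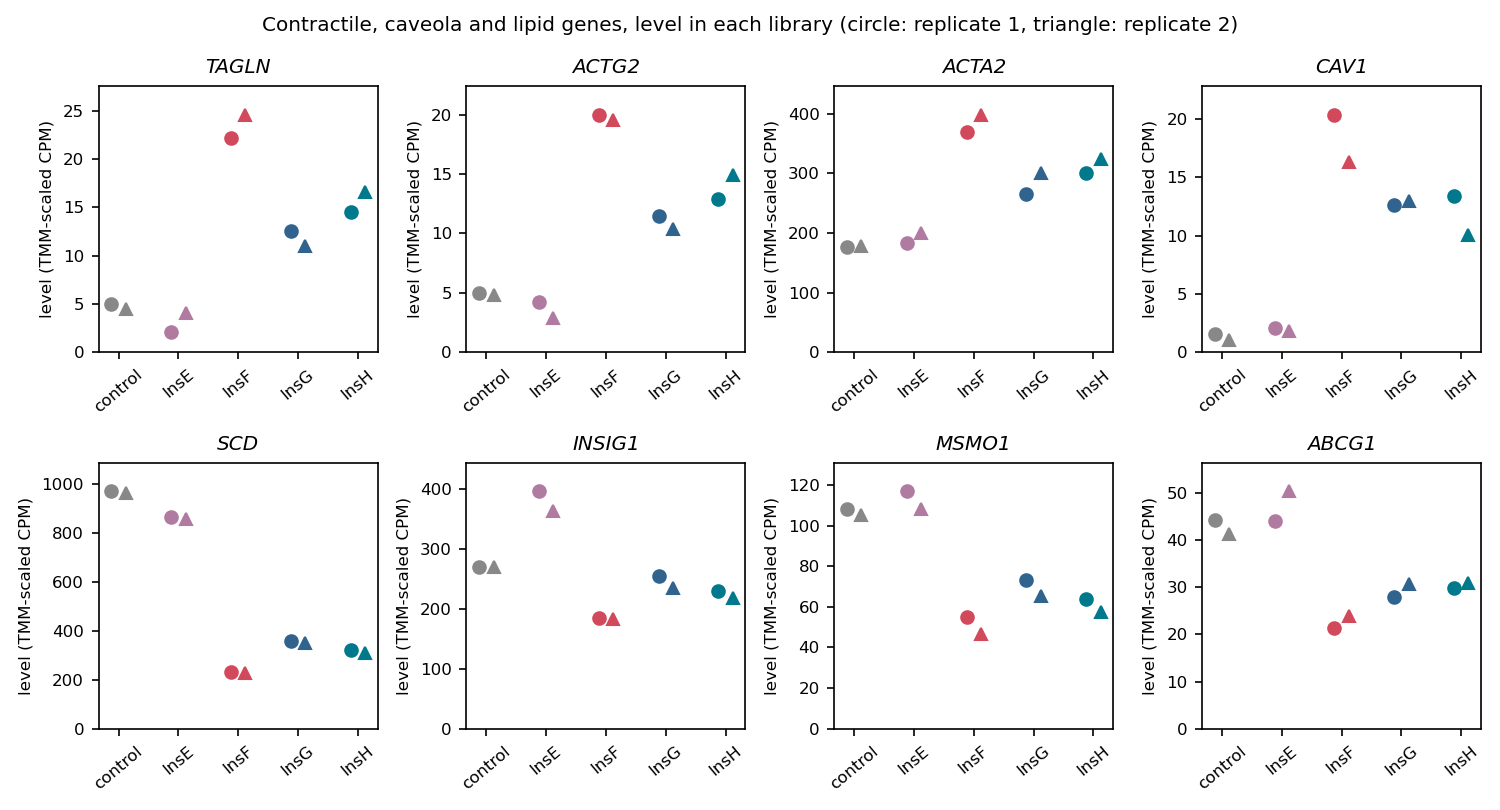
Level in TMM-scaled CPM (y axis, from 0) of 3 contractile genes, CAV1 and 4 lipid genes in each of the 10 libraries by line (x axis), circles for replicate 1 and triangles for replicate 2. InsF lies above InsG and InsH in the upper row and below them in the lower row, and SCD falls from 972 and 964 CPM in control to 230 and 228 CPM in InsF.

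Several lipid synthesis genes went the other way. SCD (ENSG00000099194.5, chr10:100347124-100364834, plus strand), the desaturase that makes monounsaturated fatty acids, was at 230 and 228 CPM in InsF, 358 and 349 CPM in InsG and 320 and 310 CPM in InsH. InsF was below every other library of the series, with control at 972 and 964 CPM and InsE at 866 and 859 CPM. SCD fell by 0.55 ± 0.02 on the log2 scale (adjusted p = 3.49e-20), by 0.54 ± 0.05 without the block (adjusted p = 0.0243) and by 0.54 after the GC correction. Of 16 tested genes of fatty acid synthesis and desaturation, 6 fell and none rose, but after the GC correction 5 fell and 1 rose. The desaturase FADS2 fell by 0.20 ± 0.02 (adjusted p = 3.21e-07), the acyl-CoA synthetase ACSL3 by 0.16 and FASN, the fatty acid synthase, by 0.03 (adjusted p = 0.0301; 0.894 without InsF replicate 1). Without InsF replicate 2, 3 of the list were called. ELOVL6, a fatty acid elongase, fell by 0.14, and its call ended after the GC correction (adjusted p = 0.191) and without InsF replicate 2 (adjusted p = 0.291). The median of the list was -0.03, so most of its members hardly moved.

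Of 20 tested genes of cholesterol synthesis, 9 fell and none rose, and the split was 9 to 0 after the GC correction as well. In InsG minus InsH, 6 of these genes were higher and 2 lower. The median change in InsF was -0.01 against InsG alone and -0.07 against InsH alone. MSMO1, a sterol methyl oxidase, was at 55.2 and 46.8 CPM in InsF, 73 and 65.1 CPM in InsG and 63.9 and 57.3 CPM in InsH. InsF was lowest in each replicate number, a fall of 0.33 ± 0.04 (adjusted p = 3.51e-08). HMGCS1, which makes HMG-CoA, fell by 0.23 ± 0.02 (adjusted p = 9.3e-09), and the enzyme genes IDI1 and SQLE fell by 0.21 and 0.19. The median of the list was -0.05.

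The sterol uptake, efflux and control list had the lowest median of the lipid lists, -0.16, with 6 of 15 tested members lower and 1 higher. INSIG1, the endoplasmic reticulum protein that holds back SREBP when sterols are abundant and is itself an SREBP target, was at 185 and 182 CPM in InsF, 255 and 235 CPM in InsG and 229 and 218 CPM in InsH. It fell by 0.36 ± 0.02 (adjusted p = 3.99e-14). The cholesterol exporter ABCG1 was at 21.3 and 24 CPM in InsF, 27.9 and 30.6 CPM in InsG and 29.9 and 30.8 CPM in InsH, a fall of 0.41 ± 0.05 (adjusted p = 9.63e-07). The sterol carrier STARD4 fell by 0.30 and SREBF1, which encodes SREBP1, by 0.22. SCAP, the escort of SREBP, rose by 0.11, a call lost after the GC correction (adjusted p = 0.431) and without InsF replicate 1 (adjusted p = 0.561). The sterol regulatory element TCACNCCAC was found in none of the 22 windows that the promoter table holds for the called genes of the 3 lipid lists and in 0.88% of all promoters, which says only that these letters are not in these windows.

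Genes downstream of FGF receptors showed small changes in both directions. Of 14 tested genes of ERK feedback and output, 1 rose and 4 fell, with a median of -0.05. Of all tested genes, 9.54% were called higher and 9.71% lower. SPRY2, SPRY4 and DUSP6, feedback inhibitors of receptor tyrosine kinase and ERK signalling, had changes of 0.01, 0.04 and -0.05 and did not pass. SPRY2 was at 203 and 190 CPM in InsF, 204 and 192 CPM in InsG and 198 and 188 CPM in InsH, with the 3 lines overlapping. In InsE minus control, SPRY2 was higher by 1.00 (adjusted p = 3.41e-11). The ETS factor ETV5 fell by 0.08, lost without InsF replicate 1 (adjusted p = 0.16). The ERK inhibitor SPRED1 fell by 0.12, a call lost after the GC correction (adjusted p = 0.623) and without InsF replicate 2 (adjusted p = 0.263). ETV4, another ETS factor, rose by 0.15, likewise lost (adjusted p = 0.268 and 0.303). After the GC correction 2 members of the list fell and none rose, and without InsF replicate 1 the list had 1 call. Of 14 immediate early genes 1 rose, a share below the 9.54% of all tested genes called higher. It was JUN, raised by 0.25 ± 0.05 (adjusted p = 0.000389; 0.0654 without InsF replicate 1). Among the FGF receptors, FGFR1 did not pass at 0.00 ± 0.01, and FGFR2 fell by 0.04. The co-receptor GPC1 rose by 0.20. Without InsF replicate 1 the adjusted p was 0.684 for FGFR2 and 0.158 for GPC1. The ligand gene FGF14 fell by 0.11, which was not called after the GC correction (adjusted p = 0.528).

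Of 14 tested GIST and Cajal cell genes, 6 fell and 2 rose, with a median of -0.04. Without InsF replicate 2, 4 fell and 1 rose. KIT was at 1400 and 1300 CPM in InsF, 1510 and 1420 CPM in InsG and 1420 and 1340 CPM in InsH. InsF was lowest within each replicate number while the lines overlapped across numbers, and the fall was 0.07. ETV1, the ETS factor on which GIST cells depend, fell by 0.17 ± 0.02 (adjusted p = 4.18e-09), HAND1 by 0.15 and PDGFRA by 0.12 (adjusted p = 0.0579 without InsF replicate 2). PRKCQ fell by 0.20 (adjusted p = 0.0212) but not without InsF replicate 2 (adjusted p = 0.38). COL5A3, a collagen chain gene kept on this list, rose by 1.47 ± 0.25 (adjusted p = 7.3e-05) at a low level, 2.31 and 2.83 CPM in InsF against 0.828 to 0.992 CPM in InsG and InsH.

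The other lists gave smaller or mixed counts, to be set beside the 9.54% of all tested genes called higher and 9.71% called lower. Of 14 TGF-beta and BMP genes, 4 rose and none fell with a median of -0.02, and 2 rose without InsF replicate 1. After the GC correction 5 rose and 1 fell. TGFBI, a matrix protein induced by TGF-beta, rose by 0.53 ± 0.05 (adjusted p = 3.81e-10) and BMP4 by 0.30 ± 0.02 (adjusted p = 4.69e-11). In the WNT pathway 3 of 18 rose and 1 fell: the secreted WNT antagonist SFRP1 fell by 0.29 ± 0.01 (adjusted p = 4.04e-18), at 478 and 462 CPM in InsF, 594 and 582 CPM in InsG and 566 and 562 CPM in InsH. SFRP4, another member of that family, rose by 0.57 ± 0.11 (adjusted p = 0.000228). Of 30 glycolysis and hypoxia genes, 7 rose and 2 fell, but 4 rose and 5 fell after the GC correction, and 4 rose and none fell without InsF replicate 1. NDRG1 rose by 0.55 ± 0.08 (adjusted p = 2.43e-06), and the lactate exporter SLC16A3 fell by 0.37, which ended without InsF replicate 2 (adjusted p = 0.127). All 6 called p53 targets of 19 fell, CCNG1 by 0.19 (adjusted p = 0.0714 without InsF replicate 1), and 2 were called after the GC correction, as without InsF replicate 1 and without InsF replicate 2. Of 11 CTCF and cohesin genes, 5 fell and 1 rose, but after the GC correction 1 fell and 1 rose, and without InsF replicate 1 there was 1 call. CTCF itself was at 0.01 and did not pass. Of 25 replication and mitosis genes, 4 rose and 7 fell, with TOP2A lower by 0.13. After the GC correction none rose and 7 fell, and without InsF replicate 1 the list had 1 call, a fall. Of 13 mitochondrially encoded transcripts 9 rose, by at most 0.13, and 4 after the GC correction. With DESeq2 size factors 9 rose and 1 fell, with library sizes alone or without InsF replicate 1 4 rose, and with no count filter 3 rose. Of the 5 tested fibroblast markers 3 rose, and 1 without InsF replicate 1. Among the 3 were PDGFRB, by 0.27, and COL1A1, which is also on the collagen list. Of the 2 tested epithelial markers KRT18 rose by 0.15.

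Of the 15 largest falls, 13 were genes under 10 CPM in all 6 libraries; the others were SCD and RGPD5. GPM6B, a membrane glycoprotein, was at 1.93 and 1.14 CPM in InsF, 2.99 and 3.22 CPM in InsG and 2.5 and 2.15 CPM in InsH, a fall of 0.72 (adjusted p = 0.0177). It was lost without InsF replicate 2 (adjusted p = 0.267) and after the GC correction (adjusted p = 0.0635). RTN4RL2, a Nogo receptor homologue, fell by 0.69 and C11orf96 by 0.57, with adjusted p values of 0.11 (RTN4RL2, without InsF replicate 1) and 0.119 (C11orf96, without InsF replicate 2). FIRRE, a long noncoding RNA of the X chromosome, fell by 0.70, and its adjusted p was 0.611 without InsF replicate 1 and 0.0975 after the GC correction. SEPT5-GP1BB is a readthrough, and MTRNR2L8 and RGPD5 have near-identical copies, so reads of these 3 are uncertain. Each of the 14 falls other than SCD was lost when at least 1 library was left out.

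The genes whose centred log2 CPM followed FGF3 most closely over the 6 libraries were ARRB1, PDLIM1, RANGAP1, TSR2 and TANGO2, each with a Pearson r of 1.0 after rounding. Their changes ran from 0.04 (ARRB1) to 0.21 (TANGO2), smaller than that of FGF3. ARRB1 was not called (adjusted p = 0.366), and without InsF replicate 1 PDLIM1, TSR2 and TANGO2 were lost (adjusted p = 0.127, 0.173 and 0.424). The GC correction ended the calls of PDLIM1 and TANGO2 (adjusted p = 0.0677 and 0.219). The most opposite were MIA2, MARCH5, PPAT, PAIP1 and RBM12, with changes from -0.20 (MIA2) to -0.09 (RBM12). Without InsF replicate 1 MIA2, PPAT and RBM12 were lost (adjusted p = 0.23, 0.0887 and 0.329), as they were after the GC correction (adjusted p = 0.137, 0.483 and 0.519). Over 12129 genes compared, 1219 had an r of at least 0.9 (10.1%) and 1243 an r of at most -0.9 (10.2%), from 6 libraries of 3 lines.

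InsE minus control is a second pair that differs in FGF3, and the lines it compares are not in the comparison above. It was tested in a fit to all 10 libraries, so those of InsF, InsG and InsH also set its spread. The fit gave 5935 calls of 15554 genes (38.2%), 2866 higher (18.4%) and 3069 lower (19.7%). Scaled by library sizes alone, 3739 were higher and 2397 lower. This fit has the replicate number as a block, though the control libraries do not pair with the insulator lines by it, and without the block 3611 genes were called. Of the 1417 genes called higher in InsF, 295 were called higher in InsE (20.8%) and 430 lower (30.3%); of the 1442 called lower, 333 were higher (23.1%) and 427 lower (29.6%). Over the 14849 genes the shares were 18.8% and 20.4%. Without the block in InsE minus control, 160 of the 1417 were higher (11.3%) and 246 lower (17.4%), and 175 of the 1442 were higher (12.1%) and 254 lower (17.6%), against 11% and 12.8% of all tested. In the genes called higher in InsF, in those called lower and over all tested genes, more were lower than higher in InsE. CTGF was higher in InsE by 0.45 (adjusted p = 0.000559), SVEP1 by 0.75 (adjusted p = 6.76e-05) and SYNPO by 1.15 (adjusted p = 2.29e-05). Of the 8 YAP targets tested above, however, 1 was higher in InsE and 4 lower, with a median of -0.22. The matrix proteoglycan and matricellular list had 6 higher and 8 lower, the contractile list 2 and 4, and cholesterol synthesis 10 and 4. IGFBP3 changed by -1.16 in InsE (adjusted p = 0.0005), TNC changed by -3.04 (adjusted p = 5.06e-09), WISP1 by -1.32 (adjusted p = 3.48e-07) and TAGLN by -0.87 (adjusted p = 0.0072), opposite to InsF. FLT1 did not pass in InsE at -0.17 (adjusted p = 0.406). SCD was lower in both, with a change of -0.17 in InsE (adjusted p = 0.000423), whereas INSIG1 was higher in InsE by 0.49 (adjusted p = 1.75e-07). Without the block, CTGF, SVEP1, SYNPO, IGFBP3, TNC, WISP1, TAGLN, SCD and INSIG1 passed in InsE in the same directions, with adjusted p values up to 0.0332 (TAGLN).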

How the data were processed

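RNA-seq of poly(A)-selected RNA gave 1 gene table per library. RSEM 1.3.2, STAR 2.5.3, DESeq2 1.38.3 and the hg38 build are listed, per the submitters' processing notes. The sources used here do not give the annotation or the strand setting. The deposited tables hold expected counts, rounded here to whole numbers, and TPM by the authors for 58381 rows, of which 58216 matched GENCODE 29. A deposited summary table with 10 value columns of other names was not used.

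The main test was edgeR 4.0.16 (R 4.3.3), quasi-likelihood with robust estimation, TMM scaling and genes kept by filterByExpr with a minimum count of 10. It was fitted to the 6 InsF, InsG and InsH libraries with line and replicate number as terms (2 residual degrees of freedom), two-sided, with Benjamini-Hochberg adjustment over 14849 genes and a threshold of 0.05. The SE is the log2 change divided by the square root of F, and 54 genes with F at 0 have none. Replicate differences correlated across genes between the 3 lines (Pearson r 0.511, 0.45 and 0.494), so the numbers were taken to pair these libraries; for control the r values were 0.009 to 0.037. InsE minus control came from a fit to all 10 libraries. Alternatives were no block, all 10 libraries, DESeq2 size factors, library sizes alone, no filter, DESeq2 1.42.0, limma 3.58.1 on log2(TPM + 1), each library left out, and, added after seeing the data, the block with a loess correction for transcript GC content and length. Promoters are RefSeq's (GRCh38.p14). The test was tried on simulated counts with known changes in InsF and with InsG and InsH alike. In the data InsG and InsH differed, so that trial does not show how sound the calls are here.

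Genes named were those of the locus, the 15 largest called rises and falls with a mean log2 CPM of at least 1 and InsF beyond both lines in each replicate, up to 4 called members of each of 36 lists, and the 5 most and least like FGF3; further list members are named with their values, and some items are not reported here. Members and lists were chosen with earlier results of these data known.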

Additional observations from a re-analysis of the deposited data

How the results depend on the processing

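The counts of calls moved with the replicate block, the libraries fitted, the test and the GC correction. For InsF minus the mean of InsG and InsH (2859), the number was 11 with no replicate block, 292 with all 10 libraries, 765 with DESeq2, 22 with limma and 1335 with the GC and length correction, and 706 to 3012 on leaving out 1 library (lowest without InsF replicate 1). For InsF minus InsG (4480) it was 5 with no replicate block, 1025, 1584, 25 and 1597 in the same order, and 1882 to 4398. For InsF minus InsH (686) it was 2 with no replicate block, 67, 180 and 6 in the same order, and 151 (without InsH replicate 1) to 1035. For InsG minus InsH (2517) it was 0 with no replicate block, 5, 740, 0 and 341, and 387 (without InsH replicate 1) to 2607; limma had 1907 genes at an unadjusted p under 0.05 and edgeR without the block 345. InsE minus control (5935) gave 3611 with no replicate block, 3158 with DESeq2, 3072 with limma and 3257 (without InsE replicate 1) to 7323; with library sizes alone 3739 were higher and 2397 lower, and with no filter 2580 and 3608. DESeq2 gave adjusted p values for 6098 genes. The cause of these differences was not tested.

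Among named genes called under either setting, the sign was reversed in 6 (MMP2 at 0 after rounding): with limma the change was -0.04 for LUM, 0.16 for MDM2, 0.10 for RBM12 and 0.01 for SPRED1, and with the GC correction 0.00 for MMP2 and 0.01 for PIK3CA. FGF3, given with no test, was at 0.97 with no replicate block and 0.94 with limma. The splits of the YAP, caveola, matrix, collagen and cholesterol lists kept their direction with DESeq2 size factors and library sizes alone. There the median of all genes moved by at most 0.004. With library sizes alone 6 contractile genes rose and 1 fell, and with either scaling 4 proteases and inhibitors rose and 1 fell. With no replicate block, 2 YAP and 2 matrix genes rose and none of the caveola, collagen, cholesterol and contractile lists were called. With DESeq2, 1 YAP, 2 caveola, 5 matrix and 3 collagen genes rose, 6 cholesterol genes fell, and 2 contractile genes rose and 1 fell. With limma, 1 YAP, 2 matrix and 1 contractile gene rose and none of the caveola, collagen and cholesterol lists were called. FGF4, FGF19 and most of the largest falls had at most a few CPM; the part of depth in their calls was not tested.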
